A study of Mus musculus with 4 samples.

Results

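The genes described are the light chain and the main heavy chains of MHC class I in mouse macrophages. They are 9 of 55536 annotated genes: B2m, H2-K1, H2-D1, H2-Q4, H2-Q6, H2-Q7, H2-T22, H2-T23 and H2-M3. They were chosen by symbol, with earlier results of these data known. Each symbol was matched to its gene identifier through the transcript annotation, and all 9 were found. PolyA RNA was sequenced from bone-marrow-derived macrophages of C57BL/6J mice, cells that are grown from marrow progenitors in culture. There was 1 group of 4 libraries. All 4 had been given 100 ng/mL Lipid A for 12 h, washed for 12 h and given 100 ng/mL Lipid A again for 60 min, per the sample descriptions. Another field of the same labels names lipoprotein A instead and mentions no wash, so agent and schedule rest on the descriptions. Lipid A is the part of bacterial lipopolysaccharide that Toll-like receptor 4 recognises. Sex and age were not collected. All libraries carry 1 donor record for the strain, and nothing in the labels says whether the cells came from separate mice, so the spread between libraries may be partly technical. Untreated libraries are not analysed here, and no value below measures a response to Lipid A.

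MHC class I molecules hold short peptides from inside the cell at its surface, where CD8 T cells and natural killer cells inspect them. Each consists of a heavy chain, whose outer domains form the peptide groove, and of beta-2 microglobulin, the light chain that all heavy chains share. Peptides are cut by the proteasome, carried into the endoplasmic reticulum by the TAP transporter and loaded with the help of tapasin. In C57BL/6 mice H2-K1 and H2-D1 are the classical heavy chains, which present a wide range of peptides. The Q, T and M genes are non-classical. Interferons and NF-kB are known to raise class I transcription through short elements shortly before the start site.

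Those elements are shown first, because each of the 9 promoters held at least one of them. The RefSeq promoter table (build GRCm38.p6) held all 9 genes, with 2 windows for H2-K1, and the 250 bases before each start site were searched on both strands. The letters searched were TTTCACTTC, the core of the class I interferon element, GAAANNGAAA, the interferon-stimulated response element, and GGGGATTCC, a kB element. They overlapped one another in 5 of 32851 windows and in 0 of those of the 9 genes. The upstream windows of the light chain B2m and of the heavy chain H2-K1 follow, at chr2:122147437-122147685 on the plus strand and at chr17:34000348-34000597 on the minus strand, with the matches in capitals.
B2m: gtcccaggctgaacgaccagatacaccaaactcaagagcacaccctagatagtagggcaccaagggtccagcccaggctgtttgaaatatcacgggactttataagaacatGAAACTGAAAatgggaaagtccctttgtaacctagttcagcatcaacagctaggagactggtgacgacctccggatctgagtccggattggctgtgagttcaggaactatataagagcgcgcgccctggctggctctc
H2-K1: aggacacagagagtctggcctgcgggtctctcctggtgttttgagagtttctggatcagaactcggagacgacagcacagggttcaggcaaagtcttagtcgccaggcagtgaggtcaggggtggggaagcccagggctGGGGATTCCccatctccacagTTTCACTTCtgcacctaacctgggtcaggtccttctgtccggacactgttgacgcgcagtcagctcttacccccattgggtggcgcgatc

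In the letters searched, the kB element and the class I interferon element stood together in 4 promoters, those of H2-K1, H2-D1, H2-Q6 and H2-Q7. No other gene of the 27025 in the table had both, so the pair was present in 0.0148% of genes. The class I interferon element was found in 6 of the 9 genes, against 0.477% of all genes, and the kB letters in 4, against 0.255% of all genes. The letters were chosen as those of elements known in class I transcription, and the genes are paralogs. These shares therefore describe the promoters and test nothing. In H2-Q4 and H2-M3 the interferon element stood without these kB letters. No other spelling of the kB element was searched, so its absence from a promoter is not shown. The H2-Q4 block reads ggggatttc at the place of the H2-Q6 match. B2m, H2-T22 and H2-T23 instead held the interferon-stimulated response element, which 3.46% of all genes held. In H2-T22 and H2-T23 it reads on the opposite strand. The blocks of 30 bases below show the matched letters in capitals, and end at the interferon element for the first 5. They lie on chromosome 17, at chr17:35262923-35262952, chr17:35424677-35424706, chr17:35439021-35439050, chr17:35379443-35379472 and chr17:37270112-37270141 on the plus strand, and at chr17:36042914-36042943 and chr17:36032806-36032835 on the minus strand. The blocks of H2-D1 and H2-T23 lie inside the first exon of a GENCODE transcript that starts further upstream than the RefSeq one. A match of letters is a description and shows no binding.
H2-D1: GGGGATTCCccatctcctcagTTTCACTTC
H2-Q6: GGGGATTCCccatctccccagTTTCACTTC
H2-Q7: tGGGGATTCCcatctccccagTTTCACTTC
H2-Q4: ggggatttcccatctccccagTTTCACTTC
H2-M3: attcccccatttcctctgaggTTTCACTTC
H2-T22: attggcttagTTTCACTTTCgaatccccaa
H2-T23: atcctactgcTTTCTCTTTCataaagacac

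The 4 libraries held 26613690, 23167140, 41453162 and 34946569 counts on genes in replicates 1 to 4, and 10407 genes reached 1 TPM (a transcript level divided by transcript length and scaled to the same total in each library) in each. Replicates 3 and 4 were each made from 4 read files and replicates 1 and 2 from 6. Mitochondrial genes took 1.94 to 4.77% of TPM. The macrophage label was checked against markers: all 8 macrophage markers passed 1 TPM everywhere, with Lyz2, Cd68 and Adgre1 the highest. None of 5 T cell markers did, and 1 each of 6 dendritic cell, 5 B cell and 5 natural killer cell markers did. Of 6 neutrophil markers 2 did, S100a8 and S100a9, and the summed neutrophil level was 131, 13.0, 104 and 12.0 TPM in replicates 1 to 4. Ly6g, a defining neutrophil gene, was at 0 in all libraries. In bulk RNA more cells of a type and more RNA per cell cannot be told apart.

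The 9 genes together made up 3.16 ± 0.117% of all TPM (SD, n = 4). Every one of them was above 100 TPM in each library. Unless said otherwise, TPM values are those of the authors' gene table, which equal the sums of the first of their transcript quantifications.

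B2m (chr2:122147686-122153083, plus strand, mm10) was the light chain and the highest of the 9. Its level was 15662, 15356, 14030 and 14587 TPM in replicates 1 to 4, a mean of 14909 ± 740 TPM (SD, n = 4). Its mean was the 8th highest of all genes. The highest library was 1.12 times the lowest. B2m has 1 annotated transcript of 860 bases in 4 exons, and none of its words of 31 bases occurs in another gene, so its value rests on no division of reads between annotated transcripts.

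H2-K1 (chr17:33996017-34000347, minus strand), a classical heavy chain, was at 8124, 7833, 8502 and 9294 TPM in replicates 1 to 4, with a mean of 8438 ± 633 TPM. It ranked 12th among all genes. H2-D1 (chr17:35262730-35267499, plus strand), the other classical heavy chain, was at 5296, 4788 and 4602 TPM in replicates 1 to 3 and at 5208 TPM in replicate 4. Its mean was 4973 ± 332 TPM, at rank 19. H2-K1 was above H2-D1 in every library and the ranges did not overlap. Both together held 80.2 ± 1.58% of the TPM of the 8 heavy chains (SD, n = 4).

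The non-classical genes were lower. H2-T23 (chr17:36029773-36032855, minus strand), the Qa-1 gene whose product shows leader peptides of other class I chains to the CD94/NKG2A receptor of natural killer cells, was at 1079, 983, 1013 and 1071 TPM in replicates 1 to 4. Its coefficient of variation (CV) of 4.47% was the smallest of the 9 genes in TPM of the first quantification, while B2m had the smallest in CPM, which scales counts to the library total and does not divide by length (3.58%, against 5.03% for H2-T23). In the second quantification the CV of H2-T23 was 20.1%, where spreads were wider in general. The median CV of genes with a mean of at least 100 TPM was 22.8% there and 14.8% in the first. H2-T22 (chr17:36037128-36042747, minus strand), a ligand of some gamma delta T cell receptors, was at 1024, 908, 745 and 940 TPM. Replicate 3 was the lowest for H2-T22, and its range overlapped that of H2-T23.

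Among the Q genes, H2-Q4 (chr17:35379617-35385290, plus strand) was at 674, 607, 552 and 466 TPM in replicates 1 to 4. It had the widest spread of the 9 in this quantification, a CV of 15.3%, with replicate 1 at 1.45 times replicate 4. H2-Q7 (chr17:35439155-35443773, plus strand), a gene of the Qa-2 antigens, was at 428, 373, 330 and 354 TPM. H2-Q6 (chr17:35424850-35430055, plus strand), also of the Qa-2 group, was at 358, 298, 259 and 271 TPM. The ranges of H2-Q6 and H2-Q7 overlapped, although H2-Q7 was the higher within every library. H2-M3 (chr17:37270220-37274484, plus strand), which presents N-formylated peptides such as those of bacteria and mitochondria, was the lowest at 132, 112, 122 and 127 TPM.

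**Figure D1:**
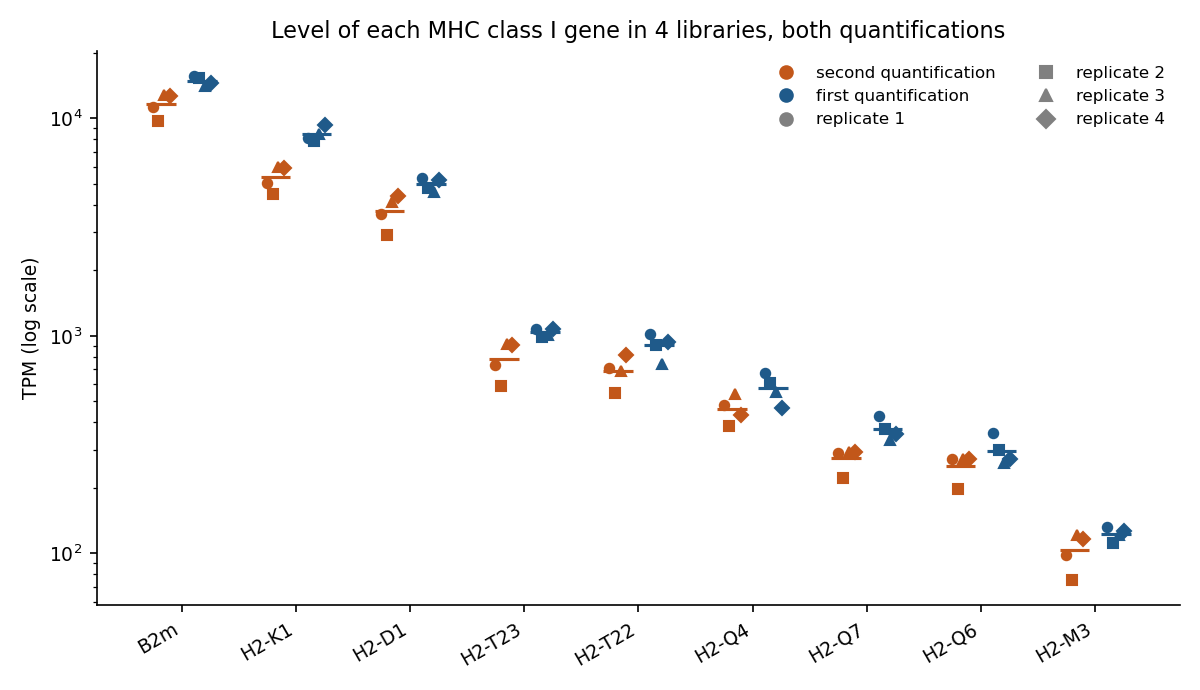
TPM of each of the 9 genes (log axis) in the 4 libraries, with the second quantification left of the first and a bar at each mean. B2m averaged 11622 TPM in the second and 14909 TPM in the first quantification, and H2-M3, the lowest gene, 103 and 123 TPM.

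The order B2m, H2-K1, H2-D1, H2-T23, H2-T22, H2-Q4, H2-Q7, H2-Q6, H2-M3 was the same in all 4 libraries. All 8 neighbouring pairs had the same sign 4 times of 4, which in a two-sided exact sign-flip permutation test gives p = 0.13, the smallest that 4 libraries allow, with the same value after adjustment over the 8 pairs. The order was taken from the mean levels of these same libraries, so this p is no test of an order set beforehand. The widest step was from H2-D1 to H2-T23, with H2-D1 higher by 2.26 ± 0.0522 on the log2 TPM scale (SD, n = 4). The narrowest was H2-T23 over H2-T22, 0.20 ± 0.165, which ranged from 0.0751 to 0.44 between libraries. H2-Q7 exceeded H2-Q6 by 0.33 ± 0.0545 and H2-K1 exceeded H2-D1 by 0.76 ± 0.122. In the mean over libraries, H2-T23 with H2-T22, H2-Q7 with H2-Q6 and H2-K1 with H2-D1 turned round in CPM. H2-K1 with H2-D1 did so in every library. H2-T22 was above H2-T23 in all but replicate 3, whereas H2-Q7 stayed above H2-Q6 in all but replicate 1. The mean of H2-K1 with H2-D1 also turned round when non-coding transcripts were left out.

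The summed heavy chains and the light chain were close in TPM. With transcripts annotated as protein coding alone, a choice made after the data were seen, the heavy chain sum was 0.898, 0.829, 0.801 and 0.866 times B2m in replicates 1 to 4, a mean of 0.848 ± 0.0425 (SD, n = 4). With all transcripts it was 1.09, 1.04, 1.15 and 1.22 times B2m, a mean of 1.12 ± 0.0771. Heavy chains therefore lay below B2m in 4 of 4 libraries by one count and above it in 4 of 4 by the other. In the second quantification the ratio was 0.839 ± 0.0390 with coding transcripts alone and 1.00 ± 0.0304 with all. The non-coding transcripts left out held 4055 ± 1094 TPM in the first quantification, of which 96.2 ± 1.14% belonged to H2-K1 (SD, n = 4).

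H2-K1 has 16 annotated transcripts, 8 of them coding and 7 of the retained intron type. H2-K1-201 (1619 bases), the full-length coding transcript, held 44.3 ± 6.99% of the gene's TPM in the first quantification (SD, n = 4). H2-K1-215 (457 bases), of the retained intron type, held 43.3 ± 10.43% of the TPM but 10.8 ± 3.65% of the counts, since TPM divides by length. Of its 457 bases 437 lie within the exons of H2-K1-201 and 369 within its untranslated part. Thus 20 bases tell it from the full-length transcript, all at the start of its first exon, which is shown here (chr17:33996616-33996674, minus strand, mm10, GENCODE M21) with those intron bases in capitals and the coding bases of H2-K1-201 in lower case.
H2-K1-215: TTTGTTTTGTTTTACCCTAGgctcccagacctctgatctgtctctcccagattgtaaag

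The share of H2-K1-215 differed between libraries. In the first quantification it took 53.2% and 51.3% of H2-K1 TPM in replicates 3 and 4, from 4 read files, against 33.7% and 34.9% in replicates 1 and 2, from 6 read files. In the second quantification it took 36.9% and 30.9% in replicates 3 and 4, against 23.8% and 29.6% in replicates 1 and 2. The libraries did not overlap by this split in either quantification. The same held for the shares of 48.4% of 19645 transcripts in the second and 43% in the first quantification (mean of at least 1 TPM in both, genes with more than 1 transcript), and for 25.7% in both with the same direction, so such a split is common in these libraries. As a level, H2-K1-215 was at 4527 and 4766 TPM in replicates 3 and 4, against 2735 and 2734 TPM in replicates 1 and 2, in the first quantification. H2-K1-201 was at 3179 and 3636 TPM in replicates 3 and 4, against 4144 and 3877 TPM in replicates 1 and 2, in the first quantification. In the second it had the opposite order, with 3148 and 3444 TPM in replicates 3 and 4, against 2954 and 2379 TPM in replicates 1 and 2. Levels of all genes were shifted there as well. The median log2 difference of second minus first was -0.0423 and -0.14 in replicates 3 and 4, against -0.42 and -0.60 in replicates 1 and 2. The share of H2-K1-201 in H2-K1 TPM in the second, 52.8% and 58.4% against 58.5% and 53.0%, overlapped. Replicates 3 and 4 were also the deeper libraries and had the higher mitochondrial share, 4.77 and 4.00% of TPM, against 1.94 and 2.80% in replicates 1 and 2. The part of these in the share of H2-K1-215 was not tested.

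Without the non-coding transcripts H2-K1 and H2-D1 were close. Coding H2-K1 was at 5211, 4821, 3763 and 4322 TPM and coding H2-D1 at 5280, 4768, 4574 and 5181 TPM in replicates 1 to 4 of the first quantification. H2-K1 over H2-D1 was 0.914 ± 0.0991 with coding transcripts alone and 1.70 ± 0.142 with all transcripts (SD, n = 4). It was 0.959 ± 0.0842 and 1.43 ± 0.0869 in the second quantification. The coding ratios lay on both sides of 1 and the ratios over all transcripts were above 1 in each library. H2-D1 has 4 transcripts, of which H2-D1-202 (2102 bases) held 94.8 ± 0.647% of the TPM, and coding transcripts together held 99.5%.

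**Figure D2:**
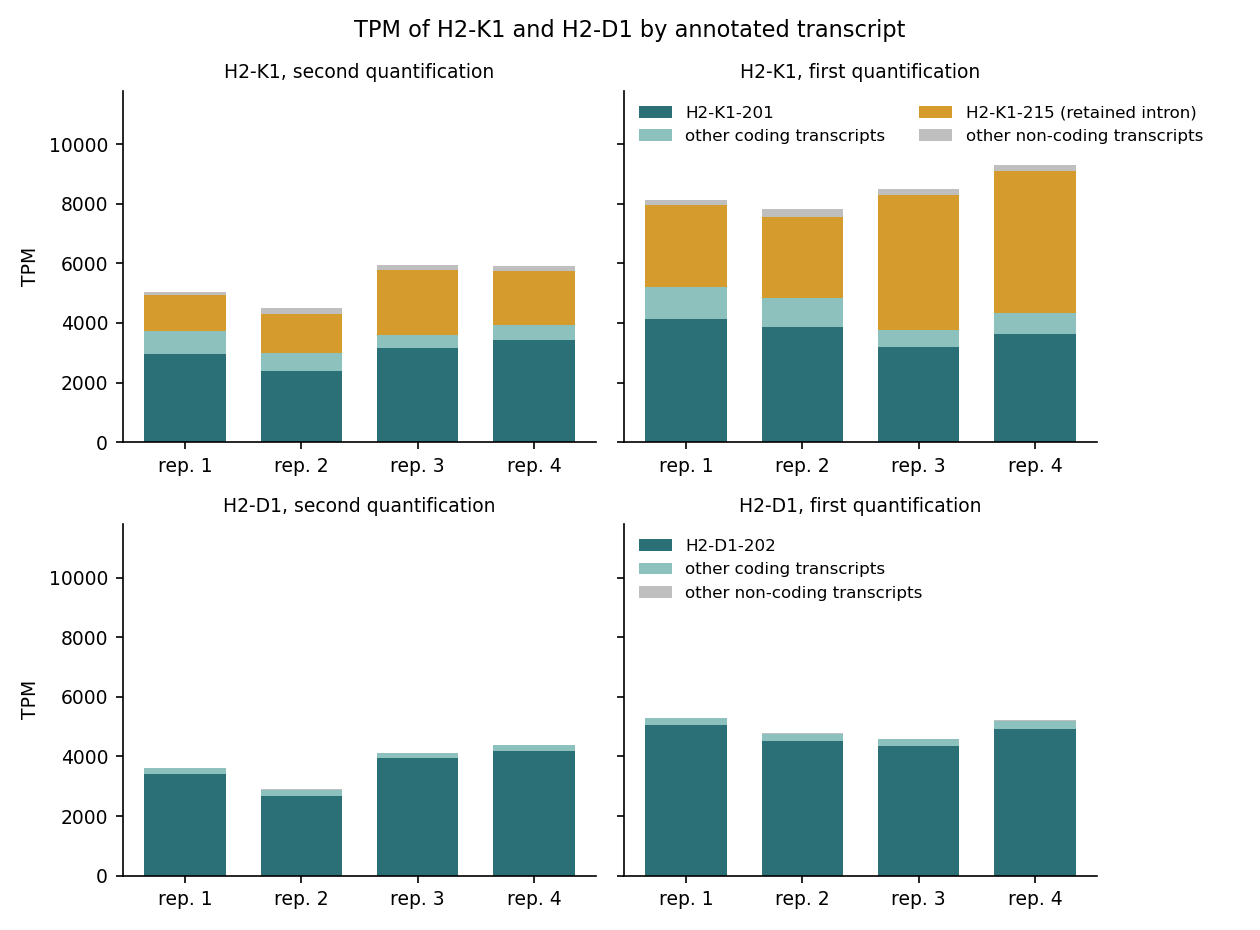
TPM of H2-K1 (above) and H2-D1 (below) in replicates 1 to 4, second quantification left and first right, stacked by annotated transcript. H2-K1-215 averaged 1638 TPM in the second and 3690 TPM in the first quantification, while H2-D1 was almost wholly H2-D1-202.

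**Figure D3:**
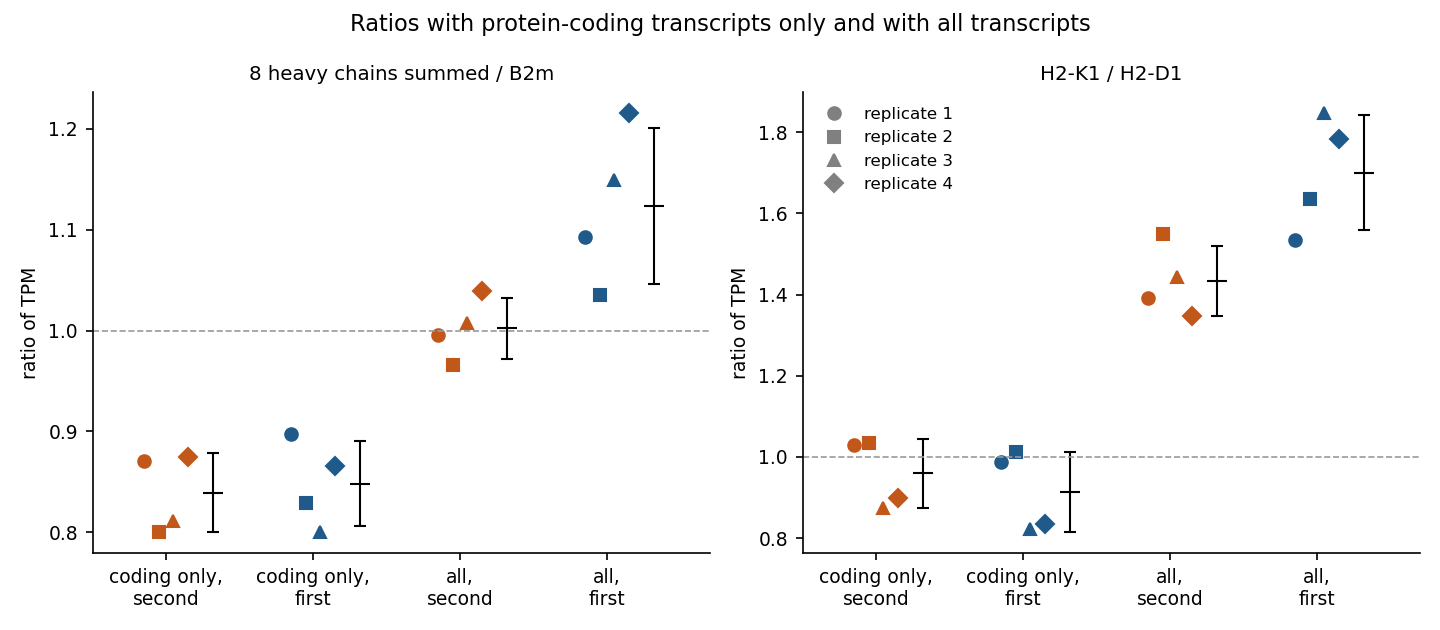
Ratio of the TPM of the 8 summed heavy chains to B2m (left) and of H2-K1 to H2-D1 (right), with protein-coding transcripts only and with all transcripts, in the second and the first quantification. Points are libraries, bars the mean and SD, and the dashed line is a ratio of 1. Over all transcripts of the first quantification the means were 1.12 and 1.70, and with coding transcripts 0.848 and 0.914.

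H2-Q7 and H2-T22 were also divided among transcripts. H2-Q7 has 6 of them. H2-Q7-204, which has 5 exons and lacks exons 4 and 5 of H2-Q7-201 (285 and 117 bases), held 49.2 ± 6.60% of its TPM in the second and 51.0 ± 4.71% in the first quantification (SD, n = 4). H2-Q7-201, with 7 exons, held 31.9 ± 6.33% in the second and 31.5 ± 5.51% in the first. In class I genes those exons encode the domain next to the membrane and the membrane anchor. H2-Q7-206, a retained intron transcript of 4209 bases with 3131 of them outside the exons of H2-Q7-204, took 17.3 ± 2.48% of TPM in the second and 14.8 ± 1.64% in the first, and 44.5% and 40.5% of the counts. The shares of H2-Q7 differed between quantifications by less than the spread between libraries for the coding pair.

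H2-T22 was split between a pair of coding transcripts. H2-T22-202 held 52.0 ± 2.87% of its TPM in the second quantification and 60.9 ± 2.21% in the first, and H2-T22-203 held 45.4 ± 2.95% in the second and 36.3 ± 2.43% in the first. These differences were larger than the spread, and H2-T22-202 was above H2-T22-203 in every library of both. Coding transcripts held 97.7 ± 0.770% of the TPM of H2-T23 in the second quantification and 97.9 ± 0.510% in the first. For H2-Q4 they held 94.5 ± 1.20% in the second and 94.4 ± 1.04% in the first. H2-Q6 was assigned wholly to H2-Q6-202, and H2-M3 has 1 transcript.

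In the first quantification the CVs of the 9 genes between libraries ran from 4.47% to 15.3%, with a median of 7.50%, beside a median of 14.8% over the 1316 genes with a mean of at least 100 TPM. Of the 9, 8 were below that median and 5 below the lower quartile of 9.81%. In the second quantification their CVs were larger, from 12.2% to 20.4% with a median of 14.6%, beside a median of 22.8% over 1106 genes chosen in the same way. Across all genes, 305 of 11679 tested (2.61%) varied between libraries beyond the trend of the dispersion (edgeR deviance test, adjusted p up to 0.05). None of the 9 genes was called, and 0 had an unadjusted p under 0.05 by this test, as 7.79% of all genes did. DESeq2's size factors and dispersion trend called 347 genes and 0 of the 9. Counts of 0 among 9 are near what such shares give. Profiles were compared by the root mean square difference of centred log2 TPM over the 4 libraries. The most alike pair of the 9 was H2-T23 and H2-M3, at 0.0385, and H2-Q6 with H2-Q7 was at 0.0472.

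**Figure D4:**
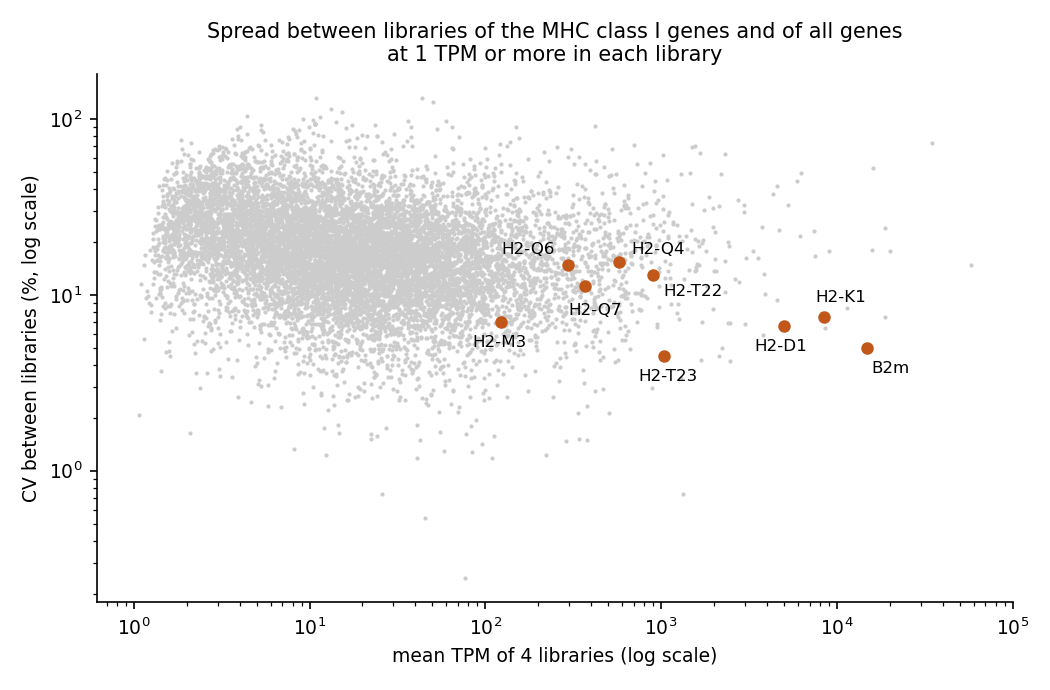
CV between the 4 libraries (log axis) against mean TPM (log axis) for the 10407 genes at 1 TPM or more in each library (grey) and the 9 MHC class I genes (orange). Those 9 have CVs of 4.47 to 15.3%, beside a median of 17.0% over all points.

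Profiles of other genes were set beside those of B2m, H2-K1 and H2-Q4, the last being the gene with the widest range. Among 6746 genes of at least 10 TPM, Sms, Pgam5 and Taok3 were nearest to B2m, with root mean square differences of 0.0033, 0.0105 and 0.0122 on the log2 scale. Ctbs, Lamtor1 and Ate1 were nearest to H2-K1, at 0.0051, 0.0099 and 0.0102. Among those near to H2-Q4 were Lrrc25 and Bbx, at 0.0292 and 0.0312. The median gene differed from these profiles by 0.216, 0.210 and 0.294. With 4 libraries such distances are a description.

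The paralogs were compared between both quantifications, since the reads of similar genes have to be divided among them. Coding sequences of the 8 heavy chains, each from the coding transcript with the most reads, were 66.8 to 93.5% identical over 28 pairs. Both ends of that range were pairs of H2-Q7, with H2-T22 over 636 aligned bases and with H2-Q6 over 645. The coding sequence of H2-Q7-204 has only 645 bases, so its pairs cover a part of the others. Among pairs without H2-Q7 the lowest was H2-T22 with H2-M3, at 71.2%, and the highest H2-K1 with H2-D1, at 91.5%. Of 31-base words in these transcripts, the share found in no other annotated gene was 36.2% for H2-T22, 41.6% for H2-Q4, 48.2% for H2-Q6 and 50.7% for H2-T23. It was 65.5% for H2-Q7, 72.3% for H2-D1, 76.7% for H2-K1, 95.4% for H2-M3 and 100.0% for B2m. With 100-base words the share was at least 85.2% for each of the 9. The values of H2-Q7 are those of H2-Q7-204, which lacks exons 4 and 5 of H2-Q7-201 (285 and 117 bases), and not of the whole gene. Of the 31-base words of H2-Q6, 379 occurred in H2-Q7, whereas 144 words of H2-Q7-204 occurred in H2-Q6. H2-T22 shared 56.1% of its 31-base words with H2-T10, and H2-Q6 shared 24.6% with H2-Q4. H2-T23 shared 25.3% with the pseudogene H2-T-ps.

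Second minus first quantification, 939 of 11660 genes (8.05%) differed by at least 1 on the log2 TPM scale (limma, adjusted p up to 0.05). None of the 9 did. An unadjusted p under 0.05 was found for 7 of the 9 and for 47.3% of all genes. With no minimum size 1734 genes (14.9%) were called, and H2-K1 and H2-Q7 among them. The second quantification was lower over all genes, by a median of -0.0423 and -0.14 in replicates 3 and 4, from 4 read files, and of -0.42 and -0.60 in replicates 1 and 2, from 6, so differences are given relative to the median gene of each library. On that scale H2-K1 was at -0.36 ± 0.154 (SD, n = 4), lower in 4 of 4 libraries. Its values were -0.47 and -0.52 in replicates 3 and 4, from 4 read files, against -0.26 and -0.20 in replicates 1 and 2, from 6 read files. Of all genes, 4.07% had a lower difference than H2-K1. Without division by length H2-K1 lay between H2-D1 and H2-T23, and its place among all genes was not determined. In CPM, with no centring, the difference of H2-K1 was -0.095 ± 0.0168, beside -0.11 ± 0.0155 for H2-D1 and -0.090 ± 0.0223 for H2-T23. The other members were higher, from -0.067 for H2-T22 to 0.087 for H2-Q6.

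In TPM the other members lay closer to the median gene. H2-Q7 was at -0.14 ± 0.0055, H2-T23 at -0.12 ± 0.0228, H2-D1 at -0.12 ± 0.0059, H2-T22 at -0.096 ± 0.0294 and B2m at -0.066 ± 0.0173, each lower in 4 of 4 libraries. H2-Q6 was higher in 4 of 4, at 0.067 ± 0.0627. H2-Q4, at -0.015 ± 0.0468, and H2-M3, at 0.022 ± 0.0234, had both signs. With the median set to 0 in each library and no minimum size, a choice made after the data were seen, H2-D1, H2-K1, H2-Q7, H2-T22 and H2-T23 were called by limma, with adjusted p of 0.00925, 0.0242, 0.00305, 0.0216 and 0.00969, among 3417 of 11660 genes (29.3%). H2-Q6 over H2-Q7 was 0.918 ± 0.0231 in the second and 0.796 ± 0.0304 in the first quantification. H2-Q5 shares 24.5% of the 31-base words of H2-Q7-204. It was at 48.8, 50.5, 41.0 and 48.9 TPM in replicates 1 to 4 of the second quantification. In the first it was at 104, 112, 86.5 and 41.1 TPM. It was thus higher in the second in replicate 4 alone, whereas in CPM it was higher in the second in 4 of 4 libraries, by 0.48 ± 0.0437 on the log2 scale.

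**Figure D5:**
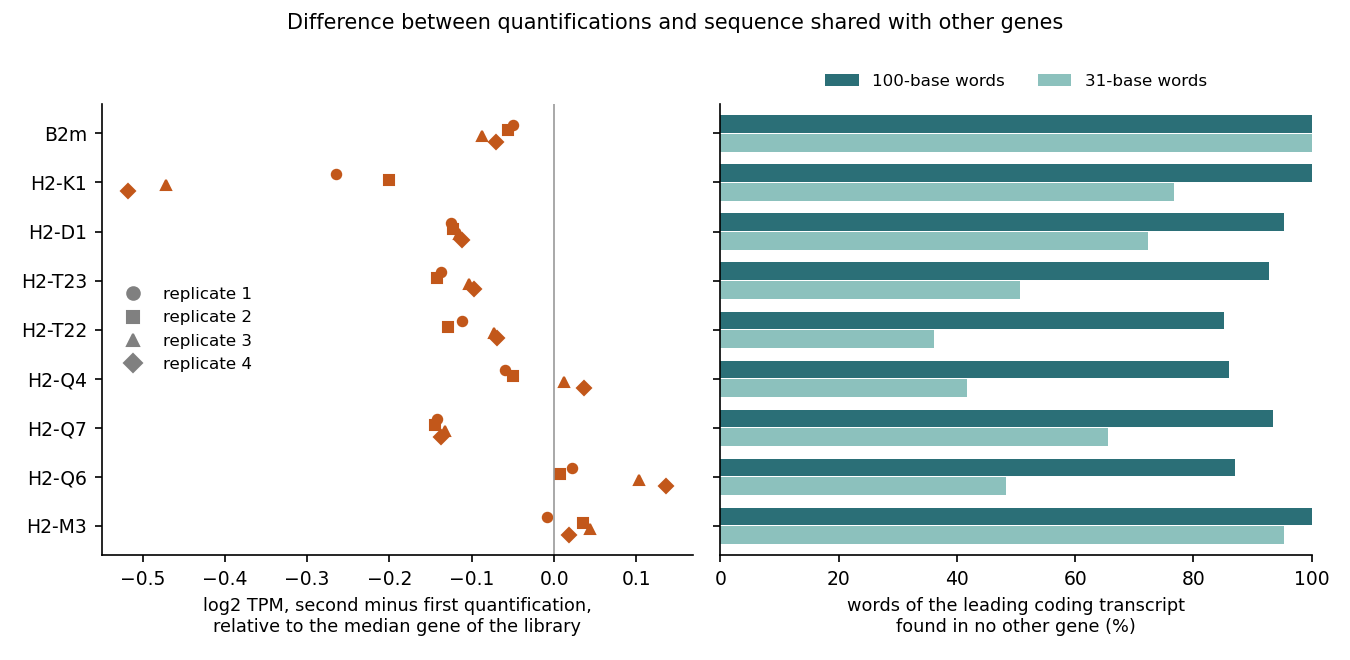
Left, log2 TPM in the second minus the first quantification for each of the 9 genes and each library, relative to the median gene of that library. Right, percentage of 100-base and 31-base words of the leading coding transcript that occur in no other gene. For H2-Q7 that transcript is H2-Q7-204, which lacks exons 4 and 5 of H2-Q7-201. H2-K1 stands lowest on the left, at -0.36, which was not so in CPM, while 76.7% of its 31-base words are its own, and H2-T22, with 36.2%, is at -0.096.

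By the number of read files, 4 against 6, no gene of 12667 was called (0%) by edgeR's quasi-likelihood test with Benjamini-Hochberg adjustment. At an unadjusted p under 0.05 there were 897 genes (7.08%) and 0 of the 9, and DESeq2 called 103 genes and 0 of the 9. The edgeR log2 differences of the 9 were all below 0, beside a median of 0.027 over all genes tested, with quartiles of -0.193 and 0.221. Those of the 9 ran from -0.38 for H2-Q4 (SE 0.228, adjusted p = 0.767) to -0.042 for H2-M3 (SE 0.199, adjusted p = 0.973). H2-D1, H2-T23 and H2-M3 were above 0 in CPM without edgeR's scaling, at 0.022, 0.076 and 0.093. The median of genes at 1 TPM in each library was 0.14 there, and each of the 9 lay below it. In TPM, 5 of the 9 had libraries that did not overlap, as did 39.1% of all genes. H2-Q4 averaged 509 TPM from 4 read files, against 641 TPM from 6. H2-K1, H2-T23 and H2-M3 had the other sign in TPM. There H2-K1 averaged 8898 from 4 read files, against 7978 from 6, a log2 difference of 0.16, whereas edgeR on counts gave -0.25 (SE 0.283, adjusted p = 0.890). H2-T23 and H2-M3 differed by 0.017 and 0.032 in log2 TPM. The median of genes at 1 TPM in each library was 0.067, so H2-T23 and H2-M3 lay below it and H2-K1 above it.

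Among other MHC class I genes H2-T24 was above H2-M3 in every library, and the rest were below each of the 9 on average. Of 28 symbols listed 24 were in the annotation, 5 reached 1 TPM in each library and 12 had no count in any. H2-T24 was the highest at 193, 176, 176 and 159 TPM in replicates 1 to 4, a mean of 176 ± 14.0 TPM, H2-Q5 followed at 85.8 ± 31.7 TPM and H2-M2 at 36.7 ± 15.3 TPM (SD, n = 4). H2-M2 was at 43.5, 55.0, 22.1 and 26.2 TPM in replicates 1 to 4, and was the 1 of 6 tested genes of this list that varied between libraries (edgeR deviance test, adjusted p = 0.0321). Of 7 class I-like proteins encoded outside the MHC, 5 reached 1 TPM in each library. They were led by Fcgrt, the neonatal Fc receptor, at 53.6 ± 15.4 TPM, Hfe, which takes part in iron control, at 29.8 ± 2.87 TPM, and Mr1, which presents vitamin B metabolites to T cells, at 15.2 ± 4.69 TPM.

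The peptide loading machinery was present throughout, with 14 of 14 genes at 1 TPM and 10 at 100 TPM in each library. Tapbp, which encodes tapasin, averaged 759 ± 77.5 TPM, Psme2, a subunit of the proteasome activator PA28, 755 ± 61.6 TPM, and Psmb8, a catalytic subunit of the immunoproteasome, 733 ± 51.5 TPM. None of the 14 was called variable between libraries. Of the 14 genes listed for class I transcription all reached 1 TPM and 0 were called. Among them Irf1, a transcription factor that interferons induce, was at 671 ± 112 TPM, and Stat2, a transducer of type I interferon signals, at 371 ± 32.9 TPM. Nlrc5, the transactivator of class I genes, singled out after its values were seen, was at 98.9, 101, 98.2 and 93.5 TPM in replicates 1 to 4. Of 5 genes listed as class I receptors of myeloid cells or their relatives, 4 reached 100 TPM in each library, led by Lilr4b at 847 ± 188 TPM, Pirb, an inhibitory receptor that binds class I, at 477 ± 78.9 TPM and Lilrb4a at 356 ± 147 TPM, and 0 of the 4 tested were called.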

How the data were processed

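PolyA RNA-seq of 4 libraries was used, grouped by the sample descriptions into 1 group. Gene tables hold expected counts and TPM, and transcript tables hold 2 quantifications of the same libraries, the first with expected counts, TPM and the percent of each gene's TPM per transcript, the second with estimated counts and TPM, as deposited by the authors. Alignment was to mm10 with GENCODE M21, per the file headers and labels. The programs are not given in the sources used here. Deposited bounds of TPM intervals and SDs of counts were kept as the authors' values.

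Transcripts were summed to 55450 genes in both quantifications. Expected counts were rounded. R 4.3.3, edgeR 4.0.16 (deviance and quasi-likelihood tests, filterByExpr, TMM), limma 3.58.1 (log2 of TPM + 0.1, mean of at least 1 TPM) and DESeq2 1.42.0 (an alternative) were fitted over all genes, tested on simulated data, with Benjamini-Hochberg adjustment at 0.05. Folds depend on the added 0.1 at low levels. Depth was 23167140 to 41453162 counts on genes, and the floor of 3 counts was 0.0724 to 0.129 CPM. Named genes are the 9 members, the 3 highest of each list and any list gene called variable, and the 3 genes nearest in profile. Some genes that this rule names are not reported here. The members and lists were chosen with earlier results of these data known. Alternatives were the other quantification, values not divided by length, pseudocount 1, no filter, DESeq2, leaving out each library, no minimum size, a median of 0, and coding transcripts only.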

Additional observations from a re-analysis of the deposited data

How the results depend on the processing

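The log2 ratio of the heavy chain sum to B2m was 0.17 over all transcripts. It was 0.0025 in the second quantification, 1.19 in counts not divided by length, -0.15 with only H2-K1 and H2-D1 summed and -0.24 with coding transcripts alone, a choice made after the data were seen. Leaving out each library gave 0.13 to 0.20. H2-K1 minus H2-D1 was 0.76, -0.37 in CPM and -0.14 with coding transcripts. H2-T23 minus H2-T22 was 0.20 and -0.051 in CPM, and H2-Q7 minus H2-Q6 0.33 and -0.0050. Of the 8 neighbouring pairs 5 kept their order in each library in CPM, and 7 with coding transcripts.

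Genes variable between libraries numbered 305, and 135 to 219 without one library, with 135 without replicate 1, while 0 of the 9 were called in any setting tried. Genes differing between quantifications numbered 939, with 2197 without the filter, 1734 without a minimum size, 415 in CPM and 3417 with the median at 0 and no minimum size. The 9 gave 2 calls without a minimum size and 5 with the median at 0 as well. By read file number DESeq2 called 103 genes, no filter 35, and leaving out each library 0 to 13, with 13 without replicate 2. Where a library was left out, the lone library of its side was assumed to vary like the others. No paired analysis between conditions was possible because the series has 1 group. The quantifications were compared within libraries.

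Counts limit no value of the 9, whose smallest was 2044. The causes of these differences were not tested. The number of libraries limits what any test over libraries can reach.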

Other observations

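The deposited intervals around TPM lay below the deposited TPM itself for the 9 genes in 36 of 36 values. The same held for 70.3% of the values of genes with a mean of at least 100 TPM and for 15.0% of those of all genes at 1 TPM or more in each library. B2m in replicate 1 had 15662 TPM and a deposited interval of 14523 to 14678 TPM. The intervals were therefore not used as errors, and the cause was not tested. The deposited SD of the count from the division of reads was 0 to 10.26 reads for the 9 genes, 8.98 to 10.26 for H2-Q7 and 8.19 to 9.54 for H2-Q6.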
